A study of Saccharomyces cerevisiae with 45 samples.

Results

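Target of rapamycin complex 1 (TORC1) is the protein kinase complex through which yeast couples growth to nutrients, and 10 genes of its core, its upstream GTPases and its direct effectors were followed here through spore germination. They are TOR1 (YJR066W), TOR2 (YKL203C), KOG1 (YHR186C), LST8 (YNL006W), TCO89 (YPL180W), SCH9 (YHR205W), GTR1 (YML121W), GTR2 (YGR163W), TAP42 (YMR028W) and SIT4 (YDL047W), picked by name and not by any measured value, out of 6723 genes counted. All 10 were tested in every comparison, since each exceeded 1 CPM (the reads of a gene scaled to a common library total) in 3 libraries or more. The data were 45 poly-A RNA-Seq libraries of wild type Saccharomyces cerevisiae spores of the SK1 background, in which sporulated diploid cultures give haploid spores. The groups were spores in YPD (rich medium with glucose) with 2 μM rapamycin (2000 nM in the labels), spores in YPD with the solvent DMSO, and purified spores that had not been put into medium. The treated cultures were shaken at 30 °C and sampled 7 times, at 0, 10 and 30 min and then at 60, 120, 240 and 360 min, and each of the 15 conditions had 3 libraries lettered A, B and C. The study asked whether TORC1 shapes the transcriptome of germinating spores. Nothing in the sources used here says that the letters stand for separate sporulation cultures, so the p-values measure the spread between these libraries, which may be technical.

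Rapamycin binds the prolyl isomerase Fpr1, and the pair docks on the Tor kinase and blocks TORC1. The kinase of the complex is Tor1 or Tor2, Kog1 presents substrates, Lst8 binds the kinase domain, and Tco89 is a subunit found only in TORC1, whereas Tor2 and Lst8 also serve in TORC2. The Rag-type GTPases Gtr1 and Gtr2 tether and regulate TORC1 at the vacuole. Downstream, TORC1 phosphorylates the kinase Sch9, which drives ribosome and protein synthesis, and it controls Tap42, the regulatory partner of the phosphatase Sit4 and of the PP2A catalytic subunits. The activity of TORC1 is set after transcription, and only transcript levels were measured here.

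TOR1 and TOR2 encode homologous kinases of nearly equal length, and reads of one could in principle have been counted on the other. The coding sequences have 7413 and 7425 bases, and the longest run of bases they share is 19 bases, well under the read length. It is shown as the longest exact match on the R64 reference. Reads trimmed shorter or aligned with mismatches, and the SK1 sequence, were not checked. It lies at bases 2809 to 2827 of TOR1 (chrX:562224-562242, plus strand) and at bases 2836 to 2854 of TOR2 (chrXI:60506-60524, minus strand), and it is printed with no base in capitals.
TOR1 and TOR2: attatgcatatttttcaaa
In the R64 reference genome, 0 of the 7313 windows of read length in TOR1 and 0 of the 7325 in TOR2 occurred anywhere else, and the number was 0 for each of the other 8 genes too. None of the 10 coding regions overlapped another annotated gene on R64, and each was a single exon.

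Promoter windows of 300 bases, from 250 before the start codon to 50 from its first base on, were read from R64 on the coding strand. The reads were aligned to the SK1 genome, so these are reference sequences and not those of the strain. They are given for the genes on which the results below turn, namely the kinase pair TOR1 and TOR2, SCH9, and the pair GTR1 and TAP42 whose levels were most alike. Capitals mark matches, on either strand, to GATAAG (bound by GATA factors), AGGGG (the stress response element), GATGAG (the PAC element of ribosome biogenesis genes) and AAAATTTT (part of the RRPE element of the same genes), and none of these strings overlaps another.
TOR1, chrX:559166-559465, plus strand: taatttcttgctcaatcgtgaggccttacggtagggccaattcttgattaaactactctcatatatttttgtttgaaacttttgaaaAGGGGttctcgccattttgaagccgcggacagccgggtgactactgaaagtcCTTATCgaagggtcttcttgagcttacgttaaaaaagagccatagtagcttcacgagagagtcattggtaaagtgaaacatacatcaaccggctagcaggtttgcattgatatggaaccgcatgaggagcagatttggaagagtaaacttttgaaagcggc
TOR2, chrXI:63310-63609, minus strand: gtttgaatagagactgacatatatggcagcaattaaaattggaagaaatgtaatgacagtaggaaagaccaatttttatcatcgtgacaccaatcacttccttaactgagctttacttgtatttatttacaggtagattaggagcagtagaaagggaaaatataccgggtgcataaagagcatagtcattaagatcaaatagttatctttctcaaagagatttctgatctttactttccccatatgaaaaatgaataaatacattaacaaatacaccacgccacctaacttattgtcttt
SCH9, chrVIII:509113-509412, plus strand: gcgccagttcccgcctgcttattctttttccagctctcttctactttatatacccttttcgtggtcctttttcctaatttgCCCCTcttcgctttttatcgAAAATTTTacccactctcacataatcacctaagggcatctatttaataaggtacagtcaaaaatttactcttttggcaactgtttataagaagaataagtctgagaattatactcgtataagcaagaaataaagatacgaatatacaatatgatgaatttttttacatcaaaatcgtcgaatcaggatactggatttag
GTR1, chrXIII:26680-26979, plus strand: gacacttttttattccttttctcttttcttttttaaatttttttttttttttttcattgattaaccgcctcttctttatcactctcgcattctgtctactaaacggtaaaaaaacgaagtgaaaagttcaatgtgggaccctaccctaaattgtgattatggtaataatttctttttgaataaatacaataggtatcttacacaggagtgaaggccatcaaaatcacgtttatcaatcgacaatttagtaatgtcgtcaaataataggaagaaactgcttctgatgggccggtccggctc
TAP42, chrXIII:327232-327531, plus strand: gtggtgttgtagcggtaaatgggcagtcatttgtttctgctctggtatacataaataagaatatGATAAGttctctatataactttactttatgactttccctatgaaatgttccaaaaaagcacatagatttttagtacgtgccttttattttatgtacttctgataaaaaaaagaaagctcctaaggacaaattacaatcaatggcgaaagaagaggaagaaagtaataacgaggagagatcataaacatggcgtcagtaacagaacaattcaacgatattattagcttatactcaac
GATAAG stood in the windows of TOR1 (opposite strand, first base at -111 from the start codon) and TAP42 (coding strand, -186), against 14.6% of the 6020 windows of this kind in the genome. AGGGG was found in TOR1 (coding strand, -163), SCH9 (opposite strand, -169) and SIT4 (opposite strand, -86), against 21.6% of windows. AAAATTTT was found in SCH9 alone of the 10 (-149), against 9% of windows, and GATGAG in 0 of the 10, against 20.3%. These are matches of letters and not measured binding sites.

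The libraries held 7736397 to 14522407 counted reads each, 7981146 to 13130722 in the 21 rapamycin libraries, 8967404 to 14522407 in the 21 DMSO libraries and 7736397 to 10918751 in the 3 spore libraries. The lowest count of any of the 10 genes in a library was 260 reads, for TAP42 in DMSO 360 min replicate B. Levels are CPM scaled by TMM factors over all libraries, and 1 library stood apart, rapamycin 360 min replicate A, whose log CPM correlated with those of its group mates at 0.972 against 0.988 to 0.997 for the rest. A summed list of 8 spore wall and sporulation genes lay at 73.0 to 129 CPM in rapamycin at 360 min and at 45.4 to 55.2 CPM in DMSO at 360 min, against 10304 to 13870 CPM in purified spores. Nearly all of the sum in spores was SPS100, at 10205 to 13643 CPM. Each of the 8 was lower in DMSO at 360 min than in spores, but SSP2 was higher at 60 min (log2 fold change 1.44). The general amino acid permease gene GAP1 and the dicarboxylic amino acid permease gene DIP5 rise when TORC1 is inhibited. At 60 min they averaged 6581 ± 355 and 2623 ± 377 CPM in rapamycin, against 119 ± 34.4 and 57.3 ± 14.8 CPM in DMSO (SD, n = 3). Both also rose in DMSO without rapamycin, with a median log2 fold change against purified spores of 3.31 at 10 min and 4.90 at 30 min. By 60 min in DMSO this median was 0.80. In bulk RNA, a change in the share of one kind of cell and a change in the RNA of each cell cannot be told apart, and no spike-in was used here, so all changes are relative to the other genes of a library.

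Per kilobase of coding sequence, SIT4 had the highest mean of the 10 transcripts in each of the 15 conditions (its libraries overlapped those of GTR1 in DMSO at 30 min), at 280 ± 19.5 CPM per kb in spores, 139 ± 17.1 in DMSO at 360 min and 139 ± 1.44 in rapamycin at 360 min (SD, n = 3). In purified spores it was followed by TCO89 at 105 ± 3.96, GTR1 at 90.7 ± 1.31, TOR1 at 65.7 (59.9 to 71.9) and SCH9 at 64.0 ± 7.75 CPM per kb, and the neighbours from TOR1 down to TOR2 (SCH9, TAP42 at 55.3 ± 8.51, GTR2 at 49.6 ± 3.27, TOR2 at 44.9 ± 3.55) overlapped in their libraries. LST8 at 38.1 ± 2.57 and KOG1 at 33.6 ± 1.51 CPM per kb came last. At 360 min in DMSO the order had changed below SIT4. GTR2 at 80.0 ± 12.6, SCH9 at 67.7 ± 2.44 and GTR1 at 65.2 ± 1.38 CPM per kb overlapped with their neighbours in that order, and TOR1 was last at 13.5 ± 0.904, below TOR2 at 23.9 ± 1.59 with no overlap. The level of TOR1 spanned a 5.31-fold range of group means over the 15 conditions and that of TAP42 a 2.75-fold range, whereas KOG1 spanned 1.73-fold, the narrowest of the 10.

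**Figure D1:**
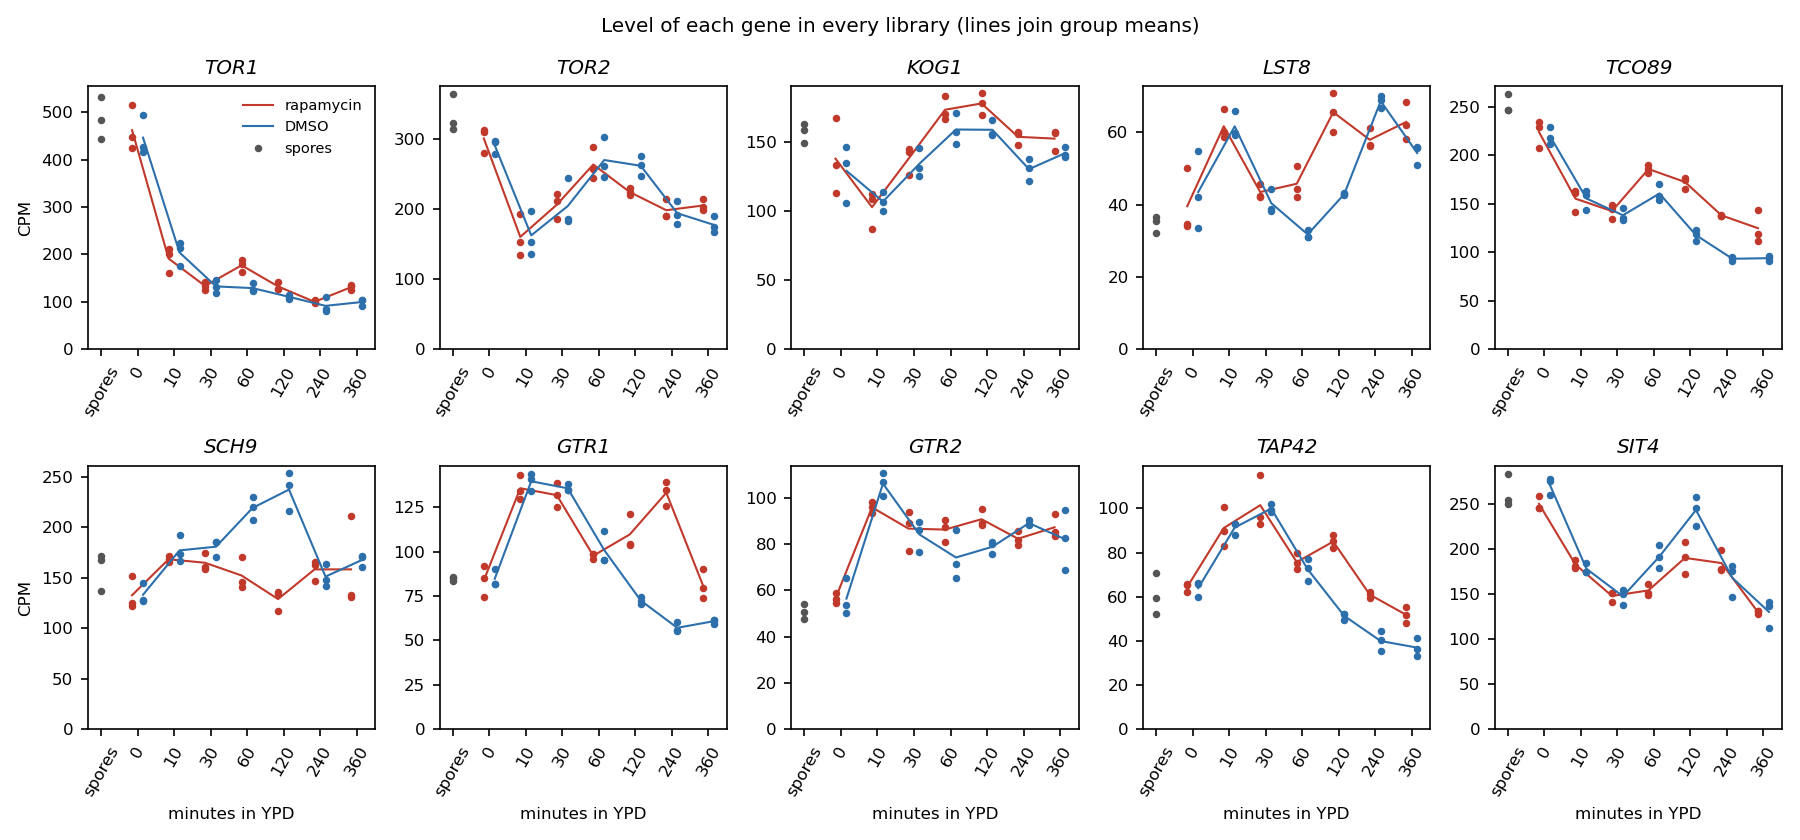
Level of each gene in CPM (linear axis from 0) in each of the 45 libraries, with purified spores at the left and then the minutes in YPD; at each time the rapamycin libraries stand left of the DMSO libraries, points are libraries and lines join the means of 3. TOR1 falls early in both cultures, SCH9 parts between rapamycin and DMSO at 60 and 120 min, and GTR1 at 120 and 240 min.

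The genes were first compared between germinating cultures with DMSO and purified spores, which asks how the transcripts of the complex change as a spore leaves dormancy. TOR1 fell most, TCO89 and TOR2 were lower at each time from 10 min on, GTR2 was higher at each of these times, and GTR1 and TAP42 were first higher and then lower. A gene is said to have passed when edgeR's quasi-likelihood test, after Benjamini-Hochberg adjustment over all genes tested, gave it a p below 0.05. At 0 min 0 of the 10 passed, as did 0% of all 5742 genes tested, and 4 of the 10 had an unadjusted p under 0.05, as did 949 of all genes. At 10 and 30 min 9 and 8 passed (75.5% and 81.7% of all genes tested), at 60 and 120 min 7 each time (85.5% and 89.0%), and at 240 and 360 min 9 and 8 (88.8% and 87.5%), so the counts did not stand out from those of the transcriptome. Changes of at least 2-fold among those that passed were found at 360 min for 3 of the 10, TOR1, TCO89 and SIT4, against 58.0% of all genes. The comparisons at the 7 times share the 3 spore libraries and are not independent of each other.

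Of the kinase subunits, TOR1 had 225, 213 and 175 CPM after 10 min in DMSO and 104, 92.1 and 104 CPM after 360 min, against 533, 484 and 444 CPM in purified spores. The libraries of each time from 10 min on lay below all spore libraries. The log2 fold change was -1.19 ± 0.11 (SE) at 10 min (adjusted p = 2.46e-06 by edgeR), -1.87 ± 0.11 at 30 min and -2.41 ± 0.12 at 240 min, where it was lowest. TOR2, the kinase that also serves in TORC2, took another course. It had 198, 153 and 136 CPM at 10 min, 302, 262 and 245 CPM at 60 min and 190, 167 and 174 CPM at 360 min, against 364, 323 and 314 CPM in spores. Its log2 fold change was -0.98 ± 0.13 at 10 min, -0.29 ± 0.10 at 60 min and -0.93 ± 0.09 at 360 min, each of which passed (adjusted p = 3.46e-05, 0.0188 and 3.5e-07 by edgeR). Of the times from 10 min on, the estimate was lowest at 10 min and nearest to spores at 60 min. The values at 10 and 360 min differed by less than their SEs. At 120 min the value was -0.33, and 120 against 60 min did not pass for TOR2 (-0.06).

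Among the other subunits, TCO89 had 94.2, 96.7 and 91.1 CPM at 360 min in DMSO, against 263, 247 and 246 CPM in spores, a log2 fold change of -1.44 ± 0.08 (adjusted p = 4.5e-10 by edgeR). KOG1 had 107 ± 6.73 CPM at 10 min in DMSO and 142 ± 3.81 CPM at 360 min, against 157 ± 7.05 CPM in spores (SD, n = 3), and passed as lower at 10, 30 and 240 min with log2 fold changes of -0.50, -0.22 and -0.27. LST8 had 2 maxima in DMSO, 65.8, 59.3 and 59.7 CPM at 10 min and 70.1, 68.9 and 66.8 CPM at 240 min, against 32.1, 35.5 and 36.6 CPM in spores. Between them its libraries at 60 min held 31.1 to 33.1 CPM, and the log2 fold change of -0.12 ± 0.11 there did not pass (adjusted p = 0.329 by edgeR). At 10 and 240 min LST8 rose by 0.89 ± 0.09 and 0.98 ± 0.10 (log2), and it passed as higher at 120 and 360 min as well.

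Both genes of the Rag GTPase pair were higher at 10 min, and later they parted. GTR2 had 111, 107 and 100.9 CPM at 10 min in DMSO, against 47.6, 54.3 and 50.6 CPM in spores, which was the largest rise among the 10 (log2 fold change 1.12 ± 0.08, adjusted p = 6.54e-07 by edgeR), and it remained higher at each later time, with 0.68 ± 0.12 at 360 min. GTR1 had 144, 141 and 134 CPM at 10 min and 55.2, 55.8 and 60.2 CPM at 240 min, against 85.6, 83.3 and 85.0 CPM in spores. It passed as higher at 10, 30 and 60 min (log2 fold change 0.78 ± 0.07 at 10 min) and as lower at 120, 240 and 360 min (-0.57 ± 0.09 at 240 min). TAP42, the phosphatase regulator, followed a like course. It had 98.6, 99.1 and 102 CPM at 30 min and 41.2, 33.3 and 36.4 CPM at 360 min, against 70.8, 59.6 and 52.2 CPM in spores, with log2 fold changes of 0.72 ± 0.11 and -0.73 ± 0.13 (adjusted p = 8.15e-05 and 0.000101 by edgeR).

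SIT4, the catalytic subunit that binds Tap42, had 138, 150 and 154 CPM at 30 min, 225, 258 and 246 CPM at 120 min and 112, 141 and 137 CPM at 360 min in DMSO, against 254, 250 and 283 CPM in spores. The libraries overlapped those of spores at 120 min and at no other time from 10 min on. Its log2 fold changes were -0.82 ± 0.08 at 30 min, -0.09 ± 0.08 at 120 min, which did not pass (adjusted p = 0.322 by edgeR), and -1.03 ± 0.10 at 360 min. SCH9, the kinase substrate of TORC1, had 216, 254 and 242 CPM at 120 min in DMSO, against 168, 136 and 171 CPM in spores. It passed as higher at 60 and 120 min only, with log2 fold changes of 0.48 ± 0.10 and 0.60 ± 0.10 (adjusted p = 0.00051 and 6.07e-05 by edgeR), and at 240 and 360 min its libraries overlapped those of the spores. With the replicate letter as a block, which pairs the libraries at 10 and 30 min, SCH9 also passed as higher at those times, with adjusted p = 0.00688 and 0.0245 by edgeR, which gave 10 and 9 genes in place of 9 and 8.

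Scaling the libraries by their size alone moved the median of all genes against spores to 0.37, 0.33, -0.20, -0.44 and -0.29 (log2) at the times from 10 to 240 min, in place of 0.00, 0.04, -0.01, -0.03 and -0.01. The share of genes that passed as higher became 74.1% of those called at 10 min and 40.4% at 120 min, in place of 51.3% and 49.6%. Under it KOG1 gave 0.08 at 30 min and LST8 -0.08 at 120 min, both without passing, and KOG1 passed as lower at 120 min (-0.37). Other calls were gained as well. SIT4 and TAP42 passed as lower at 120 min (-0.50 and -0.63), LST8 at 60 min (-0.30), SCH9 at 240 min (-0.35) and KOG1 at 360 min (-0.24). LST8 at 30 min (0.52) and SCH9 at 10 and 30 min (0.58 and 0.49) passed as higher. At 120 min 7 genes were then lower, in place of 4. KOG1 and SIT4 at 10 min, GTR1 at 60 min and SCH9 at 120 min kept their direction but no longer passed. The falls of TOR1, TOR2 and TCO89 and the rises of GTR2 passed under both scalings at each time from 10 min on. The courses of TOR2, LST8 and SIT4 did depend on the scaling. By library size alone TOR2 was nearest to spores at 30 min (-0.41) and lowest at 240 min (-1.07).

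**Figure D2:**
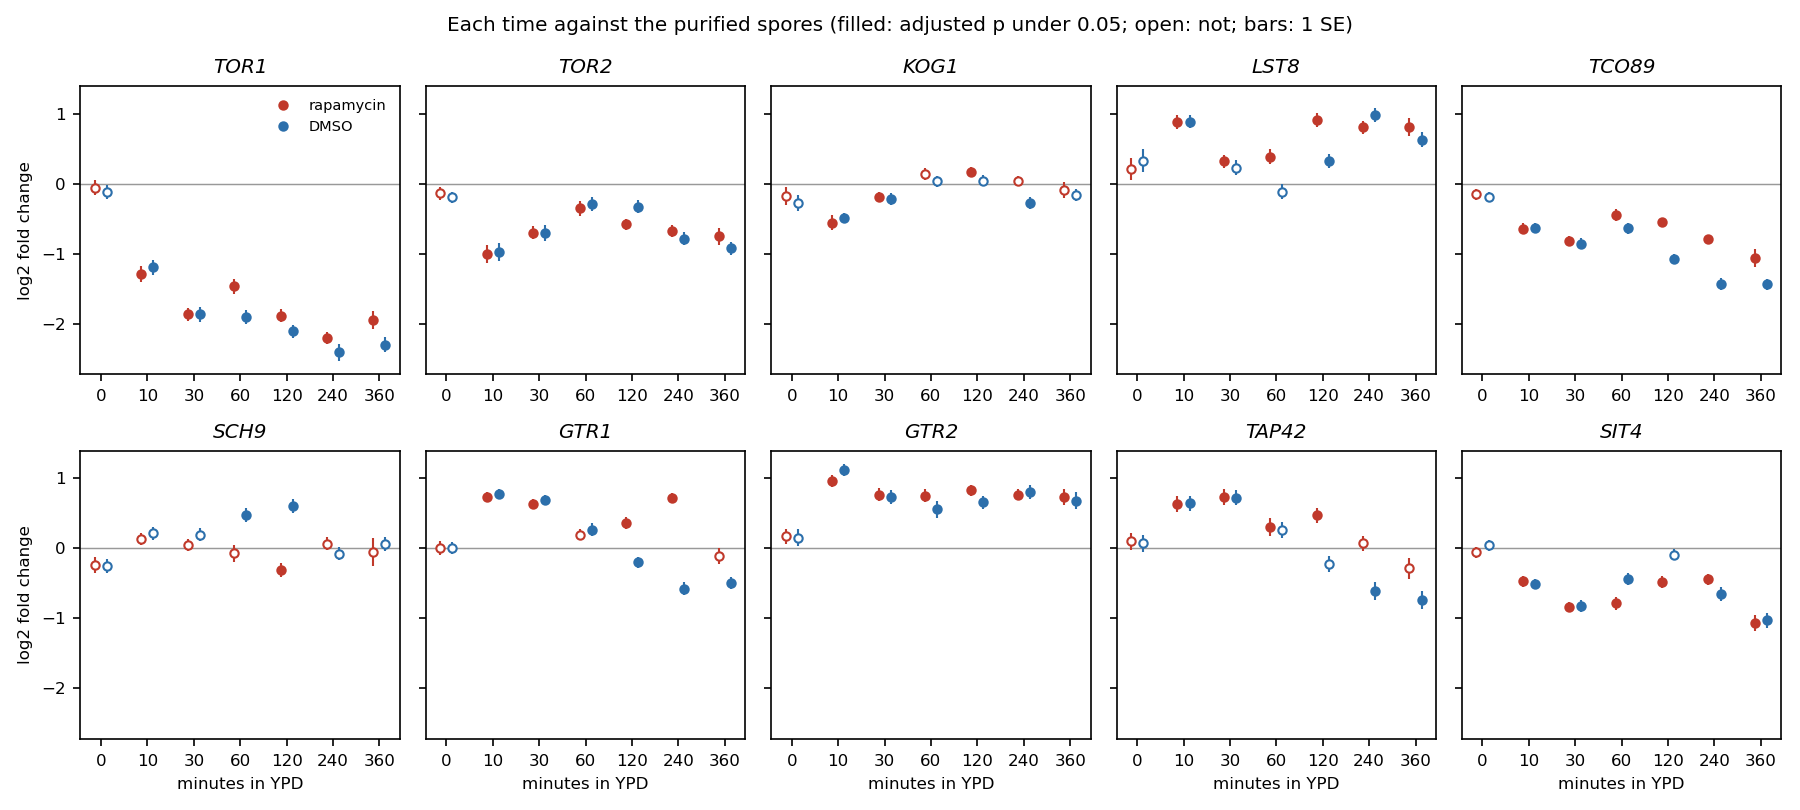
Log2 fold change of each gene against purified spores by minutes in YPD, for rapamycin (left of each pair) and DMSO cultures; points are edgeR estimates, bars are 1 SE, filled points passed at an adjusted p under 0.05 and open points did not. The 2 series share the 3 spore libraries; TOR1 lies lowest from 30 min on and GTR2 stays above 0.

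Successive times of the DMSO culture were then set against each other to show when the changes fell. At 10 against 0 min 9 of the 10 passed (72.9% of all genes), with LST8, SCH9, GTR1, GTR2 and TAP42 higher and TOR1, TOR2, TCO89 and SIT4 lower. For 30 against 10 min 5 passed (71.9%), and TOR1 fell again by 0.64 ± 0.11 while KOG1 rose by 0.32 ± 0.08 (log2). For 60 against 30 min 6 passed (71.0%), TOR2, SCH9 and SIT4 as higher and LST8, GTR1 and TAP42 as lower. For 120 against 60 min the count was 6 (65.9%) and for 240 against 120 min 9 (71.7%), when SCH9 fell by 0.56 ± 0.09 and LST8 rose by 0.77 ± 0.08. The last step, 360 against 240 min, had 2 genes that passed (42.5%), LST8 and SIT4, both lower. With the replicate letter as a block, which pairs the libraries of these steps, the counts were 7 for 30 against 10 min (TOR2 and TCO89 added), 9 for 60 against 30 min (KOG1, TCO89 and GTR2 added) and 4 for the last step (KOG1 and SCH9 added). The last count was 1 when any one of DMSO 360 min replicates A and C or DMSO 240 min replicates B and C was left out, and 4 without DMSO 240 min replicate A. The step from 30 to 60 min had 8 without DMSO 30 min replicate A and 4 without DMSO 30 min replicate B. Scaled by library size alone, the median of all genes at 60 against 30 min was -0.48 in place of -0.04, and TOR2, SCH9 and SIT4 gave -0.08, -0.20 and -0.10, of which SCH9 passed as lower. On the same scale the calls of TCO89 at 10 min, KOG1 at 30 min, LST8 and SIT4 at 120 min and KOG1 and TAP42 at 240 min were lost with their direction kept. At 360 against 240 min LST8 and SIT4 no longer passed (-0.14 and -0.17), KOG1, SCH9 and GTR1 passed as higher (0.32, 0.34 and 0.29), the median of all genes was 0.15 in place of 0.00, and 78.6% of the genes called were higher, in place of 53.1%. Neighbouring steps share the libraries of the time between them.

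The main comparison was that of rapamycin with DMSO at each time, which asks whether the transcripts of TORC1 and its effectors respond to inhibition of the complex. Up to 30 min none of the 10 genes passed. The paper dates the inhibition of TORC1 activity by rapamycin in germinating spores to a later time. The comparisons up to 30 min thus cannot show whether the transcripts respond to an inhibited complex. In rapamycin against DMSO, GAP1 and DIP5 had a median log2 fold change of 0.52 at 30 min and 5.66 at 60 min. At 60 and 120 min SCH9 and SIT4 were lower in rapamycin and TOR1, LST8 and TCO89 were higher, and from 120 min on GTR1 and TAP42 were higher. The changes were small except for GTR1 at 240 min. At 0, 10 and 30 min 0 of the 10 passed, against 0%, 0% and 0.0172% of all genes tested, and 0, 1 and 0 of the 10 had an unadjusted p under 0.05. DESeq2 and the fit with the replicate letter as a block, which pairs the libraries at these times, gave 0 as well. The log2 fold changes of the 10 lay between -0.13 and 0.10 at 0 min, -0.15 and 0.04 at 10 min and -0.13 and 0.11 at 30 min, with SEs of up to 0.20, 0.16 and 0.12.

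At 60 min 5 of the 10 passed, against 60.4% of all genes. Of these 3 were higher (31.2% of all genes) and 2 lower (29.2%). At 120 min all 10 passed, against 81.0% of all genes, with 7 higher (41.6%) and 3 lower (39.5%). At 240 min 5 passed (73.4%), of which 4 were higher (37.1%) and 1 lower (36.3%), and at 360 min 4 passed (42.6%), 4 higher (24.1%) and 0 lower (18.5%). Of all these changes 1 was at least 2-fold, that of GTR1 at 240 min, when 21.8% of all genes passed and moved by as much. The 10 had median log2 fold changes of 0.10, 0.23, 0.15 and 0.20 at the 4 times in order, beside 0.04, 0.03, 0.01 and 0.05 over all genes tested.

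SCH9 had the largest fall. It had 146, 170 and 141 CPM in rapamycin at 60 min, against 230, 207 and 220 CPM in DMSO, and 117, 134 and 136 CPM in rapamycin at 120 min, against 216, 254 and 242 CPM in DMSO. The groups did not overlap at either time, and in rapamycin the libraries at 120 min lay below those at 30 min (159 to 175 CPM). The log2 fold change was -0.52 ± 0.10 at 60 min and -0.89 ± 0.08 at 120 min (adjusted p = 0.00228 and 1.71e-06 by edgeR). At 240 min SCH9 averaged 158 ± 10.0 CPM in rapamycin and 151 ± 10.9 CPM in DMSO (SD, n = 3) and did not pass. At 360 min its libraries held 211, 132 and 131 CPM in rapamycin, against 172, 171 and 161 CPM in DMSO. Replicate A of rapamycin is the library that stood apart, and it alone lay above the DMSO libraries. With it the log2 fold change was -0.09 ± 0.20 (adjusted p = 0.73), and without it -0.36 with an adjusted p of 0.00254 (edgeR's quasi-likelihood test).

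SIT4 was lower in rapamycin at the same times as SCH9. Its libraries held 151, 161 and 149 CPM in rapamycin at 60 min, against 191, 179 and 204 CPM in DMSO, and 172, 208 and 190 CPM in rapamycin at 120 min, against 225, 258 and 246 CPM in DMSO. The log2 fold changes were -0.31 ± 0.09 and -0.36 ± 0.08 (adjusted p = 0.013 and 0.00171 by edgeR), and at 240 and 360 min SIT4 did not pass. TAP42, its regulator, moved the other way. At 60 min the groups overlapped, and at 120 min TAP42 had 85.2, 82.0 and 87.8 CPM in rapamycin, against 52.3, 49.5 and 52.2 CPM in DMSO. The difference measured 0.72 ± 0.07 on the log2 scale at 120 min and 0.63 ± 0.09 at 240 min (adjusted p = 2.28e-06 and 4.88e-05 by edgeR), and at 360 min 0.47 ± 0.13.

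GTR1 gave the largest rise. It had 105, 104 and 121 CPM in rapamycin at 120 min, against 70.5, 74.6 and 72.3 CPM in DMSO. At 240 min it had 135, 139 and 126 CPM in rapamycin, against 55.2, 55.8 and 60.2 CPM in DMSO, and the groups were far apart. The log2 fold change was 0.59 ± 0.08 at 120 min and 1.25 ± 0.08 at 240 min (adjusted p = 3.35e-05 and 1.17e-08 by edgeR), and at 360 min 0.41 ± 0.12. Its partner GTR2 averaged 90.8 ± 3.90 CPM in rapamycin at 120 min and 78.9 ± 2.65 CPM in DMSO (SD, n = 3) and passed at that time alone, with a log2 fold change of 0.20 ± 0.06 (adjusted p = 0.0162 by edgeR). The call was lost with DESeq2 (adjusted p = 0.0923) and with edgeR in 1 fit over all 45 libraries (0.0563).

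Of the kinase genes, TOR1 had 188, 163 and 181 CPM in rapamycin at 60 min, against 139, 126 and 122 CPM in DMSO. It was higher by 0.46 ± 0.09 at 60 min and 0.25 ± 0.07 at 120 min on the log2 scale (adjusted p = 0.00341 and 0.00503 by edgeR), did not pass at 240 min and was higher by 0.38 ± 0.11 at 360 min. TOR2 had 224, 229 and 219 CPM in rapamycin at 120 min, against 276, 262 and 246 CPM in DMSO, a log2 fold change of -0.23 ± 0.07 (adjusted p = 0.00748 by edgeR), and passed at no other time.

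Of the remaining subunits, TCO89 passed as higher in rapamycin at 60, 120, 240 and 360 min, and the first and last of these calls were not stable. It had 177, 175 and 166 CPM in rapamycin at 120 min, against 111, 123 and 119 CPM in DMSO, and 139, 138 and 138 CPM in rapamycin at 240 min, against 94.8, 91.6 and 93.7 CPM in DMSO. The log2 fold changes were 0.21 ± 0.08 at 60 min, close to the threshold (adjusted p = 0.049 by edgeR), 0.55 ± 0.06 at 120 min, 0.59 ± 0.07 at 240 min and 0.40 ± 0.13 at 360 min. TCO89 passed in 3 of 11 other settings at 60 min (adjusted p = 0.0699 with DESeq2) and in 5 of 11 at 360 min (0.052 by edgeR with no filter). LST8 had 50.8, 42.1 and 44.4 CPM in rapamycin at 60 min, against 33.1, 31.1 and 31.1 CPM in DMSO, and 70.8, 65.6 and 60.1 CPM in rapamycin at 120 min, against 42.9, 43.1 and 42.6 CPM in DMSO. At 240 min it was lower, with 56.2, 61.1 and 56.4 CPM in rapamycin, against 70.1, 68.9 and 66.8 CPM in DMSO. Its log2 fold changes were 0.53 ± 0.11, 0.61 ± 0.08 and -0.22 ± 0.08 at these times. KOG1 passed at 120 and 240 min with log2 fold changes of 0.16 ± 0.06 and 0.26 ± 0.08 (adjusted p = 0.0416 and 0.00739 by edgeR), and its call at 120 min was lost with DESeq2 (adjusted p = 0.151).

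These directions rest in part on the scaling. With library sizes alone as the scale, the median of all genes became 0.35 at 60 min, 0.54 at 120 min and 0.24 at 240 min (log2), in place of 0.04, 0.03 and 0.01, and the share of genes that passed as higher became 75.2%, 73.7% and 67.4% of those called, in place of 51.7%, 51.3% and 50.5%. Under it 7 of the 10 genes passed at 60 min, none of them lower. Of the 9 that passed at 120 min SCH9 alone was lower, and the 8 that passed at 240 min were all higher. SCH9 kept its direction at 60 and 120 min (-0.21 and -0.38) but did not pass at 60 min, SIT4 gave 0.00 and 0.15 and did not pass, TOR2 gave 0.27 at 120 min and passed as higher, and LST8 gave 0.01 at 240 min. Such a change of scale shifts all genes of a comparison by nearly the same amount, here upward. These values therefore lay below the medians of all genes under either scaling, which adds no evidence for the calls. The rises of TOR1, TCO89, GTR1 and TAP42 passed too, and an upward shift could not turn their direction. At 360 min the calls also depended on single libraries, since 0 of the 10 passed without DMSO replicate B or without DMSO replicate C, 1 without DMSO replicate A or rapamycin replicates B or C, and 5 without rapamycin replicate A.

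**Figure D3:**
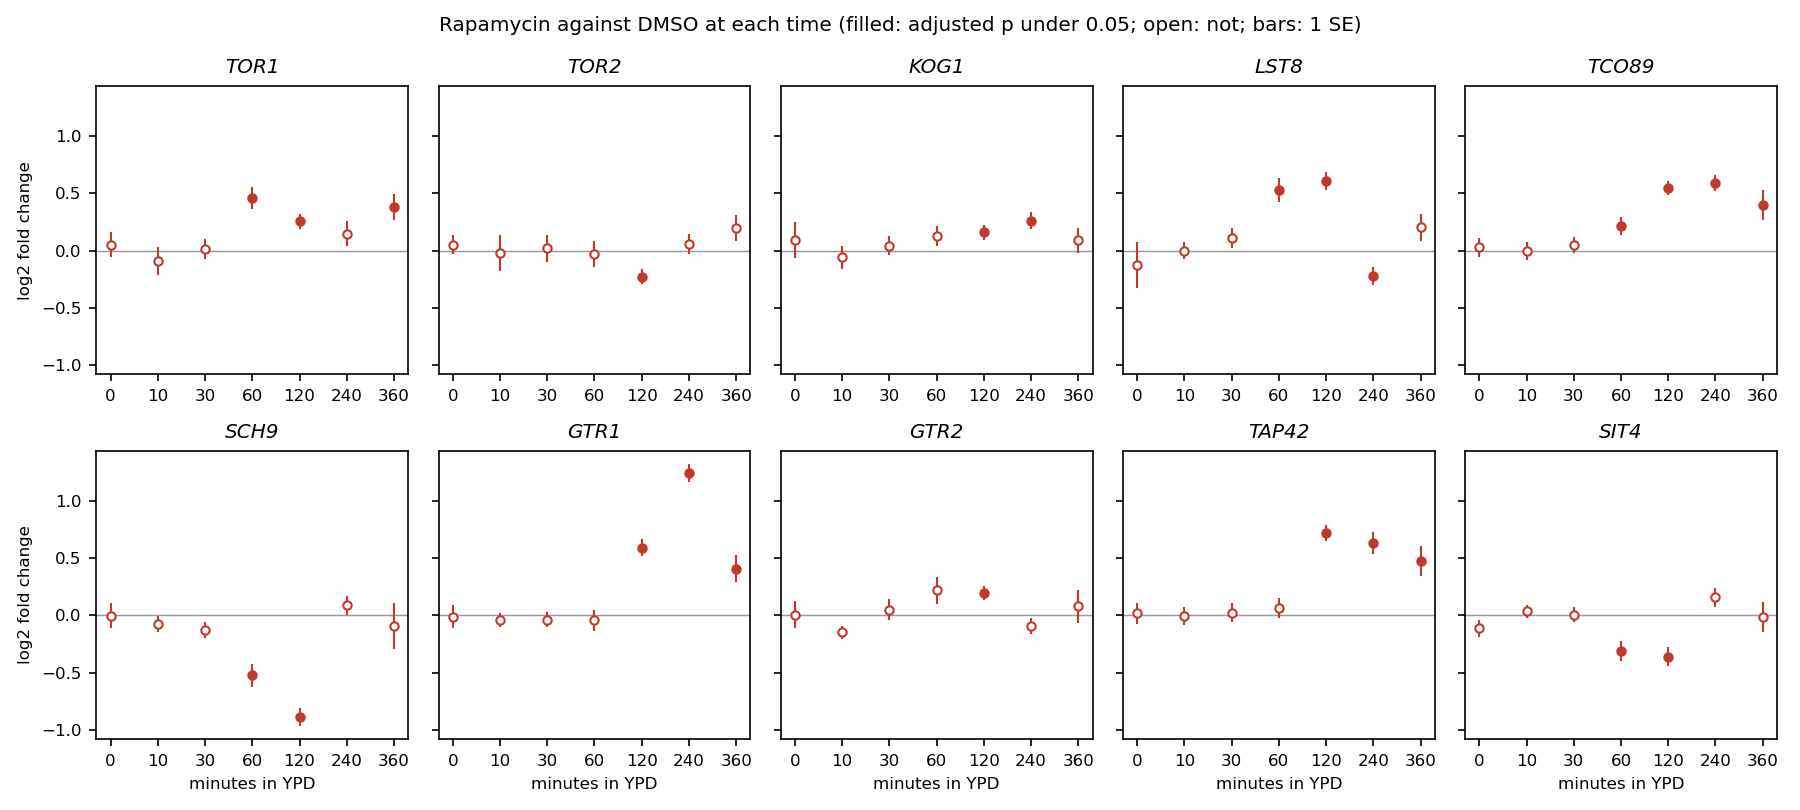
Log2 fold change of each gene, rapamycin against DMSO, by minutes in YPD; points are edgeR estimates from 3 libraries against 3, bars are 1 SE, filled points passed at an adjusted p under 0.05 and open points did not. All points to 30 min are open and near 0, SCH9 reaches -0.89 at 120 min and GTR1 1.25 at 240 min.

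Markers of development also differed between rapamycin and DMSO. A summed list of 5 genes of growing cells lay at 9324 to 9893 CPM in rapamycin at 120 min, against 18833 to 21626 CPM in DMSO, and the 8 spore genes at 353 to 801 CPM in rapamycin, against 154 to 239 CPM in DMSO. At 360 min 4 genes of cell division lay at 50.5 to 83.1 CPM in rapamycin, against 1015 to 1282 CPM in DMSO, and the growth genes at 5356 to 16700 CPM in rapamycin, against 22531 to 28105 CPM in DMSO. At 240 min the growth genes lay at 11833 to 14034 CPM in rapamycin, against 28244 to 32194 CPM in DMSO. The a-cell genes MFA1 and STE2 summed to 107 to 121 CPM in rapamycin at 120 min, against 842 to 1029 CPM in DMSO. At 360 min they were higher in rapamycin, at 2268.5 to 3795 CPM, against 457 to 715 CPM in DMSO. A list of alpha-cell genes differed in the same directions at both times. No gene of these lists was at 0 in all libraries of a group. Their part in the differences of the 10 genes was not tested.

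Whether the effect of rapamycin changed with time was tested as an interaction over 12 libraries. Between 30 and 60 min the effect changed for 4 of the 10 (50.6% of all genes), with values of 0.43 ± 0.13 for TOR1, 0.41 ± 0.13 for LST8, -0.41 ± 0.12 for SCH9 and -0.33 ± 0.11 for SIT4 (adjusted p = 0.0138, 0.0229, 0.0119 and 0.0196 by edgeR). Between 120 and 360 min it changed for 3 of the 10 (61.4% of all genes), by 0.78 ± 0.23 for SCH9, 0.41 ± 0.12 for TOR2 and -0.42 ± 0.14 for LST8 (adjusted p = 0.0105, 0.0109 and 0.0171 by edgeR). Without rapamycin 360 min replicate A this last count was 6 and the value of SCH9 0.41, and without rapamycin 120 min replicate A the count was 1. Under scaling by library size alone the values of SCH9 and SIT4 at 60 min and of SCH9 and TOR2 at 360 min did not pass.

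The rapamycin cultures were also set against the purified spores. The spore libraries are those of the DMSO comparison, so likeness between the rapamycin and DMSO series is no independent result. The number of the 10 that passed was 0 at 0 min (0.0696% of all genes) and 9 at both 10 and 30 min (75.3% and 82.8%). It was 7 and 10 at 60 and 120 min (79.4% and 85.2%), and 7 and 6 at 240 and 360 min (88.1% and 78.4%). TOR1 fell in rapamycin too, with 133, 135 and 125 CPM at 360 min, against 533, 484 and 444 CPM in spores (log2 fold change -1.94 ± 0.13 in rapamycin, beside -2.30 ± 0.10 in DMSO, with the spore libraries shared). SCH9 at 120 min was lower than in spores in rapamycin (-0.31 ± 0.09) and higher in DMSO (0.60 ± 0.10). With library sizes alone as the scale neither SCH9 call stood, at -0.18 in rapamycin and 0.20 in DMSO (adjusted p = 0.0556 by edgeR), and in rapamycin TOR2 at 60 min and KOG1 and SIT4 at 10 min no longer passed, nor did KOG1 at 30 min, which gave 0.12 in place of -0.19. GTR1 at 240 min was higher than in spores in rapamycin (0.72 ± 0.07) and lower in DMSO (-0.57 ± 0.09).

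Ratios of 2 genes within a library, taken per kb of coding sequence, do not depend on how libraries are scaled, and 3 pairs were followed over 14 comparisons each, 42 in all. The exact two-sided permutation test of 3 libraries against 3 cannot give a p under 0.1, or 0.168 after adjustment over the 42, so the tests below state only whether groups overlapped. TOR1 over TOR2 averaged 0.424 in DMSO at 120 min and 0.564 at 360 min, against 1.46 in purified spores, so that the more abundant kinase transcript was TOR1 in spores and TOR2 from 30 min on. In rapamycin the ratio was 0.674 at 60 min and 0.593 at 120 min, against 0.481 and 0.424 in DMSO, a log2 difference of 0.49 and 0.48 without overlap (exact p = 0.1, the smallest possible), whereas at 0, 10, 30 and 240 min the groups overlapped. At 360 min they did not, at 0.641 in rapamycin and 0.564 in DMSO.

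GTR1 over GTR2 averaged 1.78 in rapamycin at 240 min, against 0.704 in DMSO, a log2 difference of 1.34 with no overlap (exact p = 0.1, the smallest possible). Purified spores had a ratio of 1.83, and the DMSO libraries at 240 min lay below it with no overlap. The ratio of the 2 groups at 60 min overlapped, and at 120 min it was 1.33 in rapamycin, against 1.01 in DMSO, with no overlap. The groups did not overlap at 10 min either, when none of the 10 genes passed (1.55 in rapamycin, against 1.45 in DMSO). At 360 min they did not overlap, at 1.02 in rapamycin and 0.822 in DMSO. TAP42 over SIT4 averaged 0.382 in rapamycin at 120 min, against 0.180 in DMSO, a log2 difference of 1.09, and the groups did not overlap at any of the 4 times from 60 min on, though at 360 min only narrowly (0.314 in the lowest rapamycin and 0.314 in the highest DMSO library). At 0 min they did not overlap either, at 0.220 in rapamycin and 0.201 in DMSO. In DMSO this ratio was 0.578 at 30 min, against 0.196 in purified spores, and by 120 min it overlapped with the spores again.

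**Figure D4:**
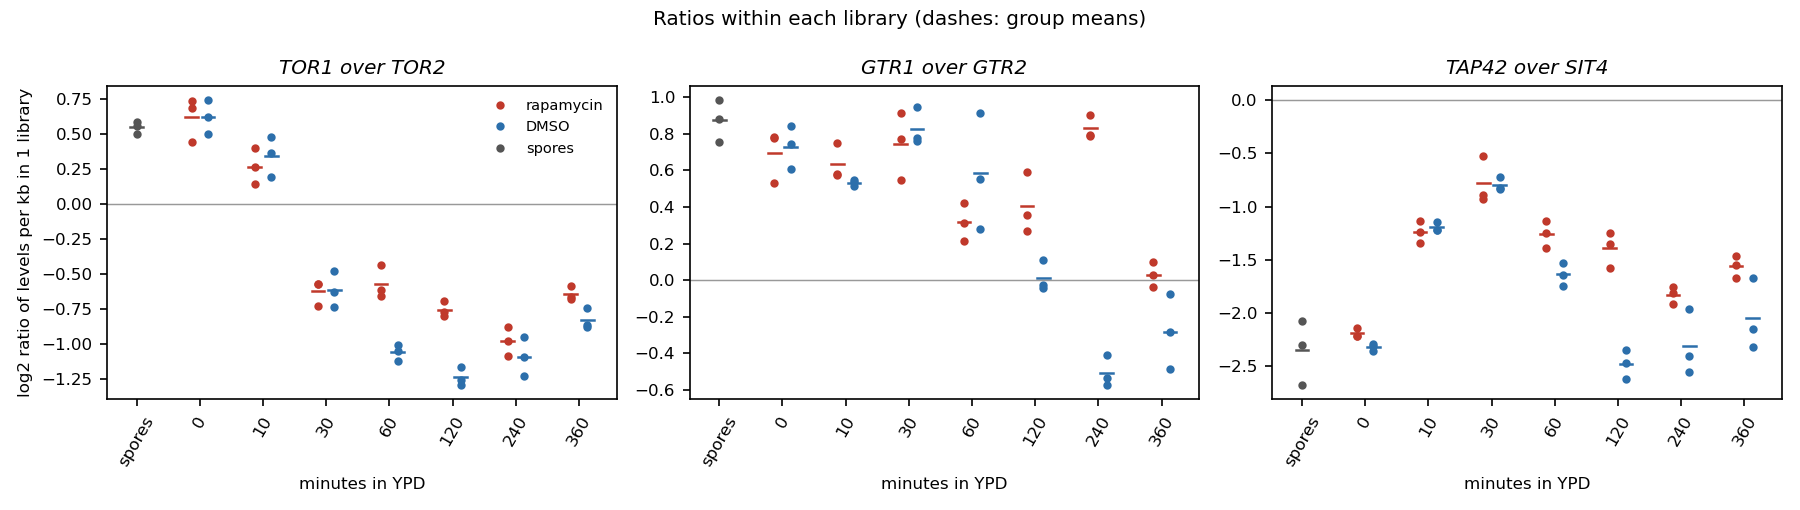
Log2 ratio of the levels per kb of coding sequence of TOR1 over TOR2, GTR1 over GTR2 and TAP42 over SIT4 within each library, for purified spores at the left and then by minutes in YPD, with rapamycin left of DMSO; points are libraries and dashes the means of 3. TOR1 over TOR2 lies above 0 in spores and below 0 from 30 min on, and GTR1 over GTR2 at 240 min lies above 0 in rapamycin and below 0 in DMSO.

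The other genes of the pathway were given by 5 lists and the rapamycin receptor, 56 genes in all, every one of them tested. Of 8 genes of the SEA complex, which inhibits or guards TORC1 through the Gtr GTPases, 5 passed at 60 min, all higher in rapamycin, and 8 at 120 min, 6 higher and 2 lower. The list had a median log2 fold change of 0.54 and 0.95 at these times, beside 0.04 and 0.03 over all genes. Here and in the lists below, the extremes named are those among the genes that passed. The largest were NPR3 at 60 min (0.88 ± 0.10) and IML1 at 120 min (1.47 ± 0.08), both of the subcomplex that turns the Gtr GTPases off. The smallest of those that passed were MTC5 at 60 min (0.53 ± 0.09) and SEC13 at 120 min (-0.24 ± 0.06), a coat protein shared with other complexes.

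Of 7 partners and regulators of the Gtr proteins, 4 passed at 60 min (3 higher) and 7 at 120 min (6 higher, median log2 fold change 0.54). The extremes were EGO2 at 60 min (0.91 ± 0.17) and SLM4 at 120 min (0.76 ± 0.08), both subunits of the vacuolar anchor of the GTPases, and at the low end LST4 at 60 and 120 min (-0.34 ± 0.10 and -0.55 ± 0.06), part of the activator of Gtr2. Of 14 genes of the PP2A and Sit4 phosphatase branch, 10 passed at 60 min (8 higher) and 9 at 120 min (6 higher, median 0.20). Here SAP4 at 60 min (1.32 ± 0.38, with 2.76 CPM in rapamycin, against 1.10 CPM in DMSO) and RRD2 at 120 min (1.77 ± 0.10, with 62.4 ± 3.56 CPM in rapamycin, against 18.1 ± 2.05 CPM in DMSO) were highest. SAP4 and SAP185 encode partners of Sit4, and RRD2 an activator of these phosphatases. SAP185 was lowest at both times (-0.69 ± 0.11 and -0.99 ± 0.07).

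The 7 genes of TORC2 and its partners had 3 that passed at 60 min, all higher, and 4 at 120 min (3 higher, median 0.10). AVO2 was highest at both times (0.78 ± 0.12 and 1.21 ± 0.12), and SLM2 at 60 min (0.22 ± 0.08) and AVO1 at 120 min (-0.15 ± 0.06) were lowest of those that passed. Of 19 downstream kinases and regulators, 14 passed at 60 min (7 higher) and 17 at 120 min (12 higher, median 0.52). GAT1, a GATA activator of nitrogen genes, was highest at both times (1.76 ± 0.14 and 2.27 ± 0.14), and TOD6, a repressor of ribosome biogenesis genes that Sch9 phosphorylates, was lowest at both (-1.71 ± 0.22 and -1.88 ± 0.10). FPR1, which encodes the receptor of rapamycin, did not pass at 60 min (-0.14 ± 0.13) and was lower at 120 min, with 185 ± 5.08 CPM in rapamycin, against 259 ± 30.6 CPM in DMSO (-0.49 ± 0.08). The share of all genes that passed at these times stands above, and the lists were not tested as sets. The values of the lists and of FPR1 are on the TMM scale, and they were not computed with library sizes alone as the scale. On that scale the median of all genes was 0.35 at 60 min and 0.54 at 120 min, in place of 0.04 and 0.03. The direction of the falls given here may therefore rest on the scaling.

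**Figure D5:**
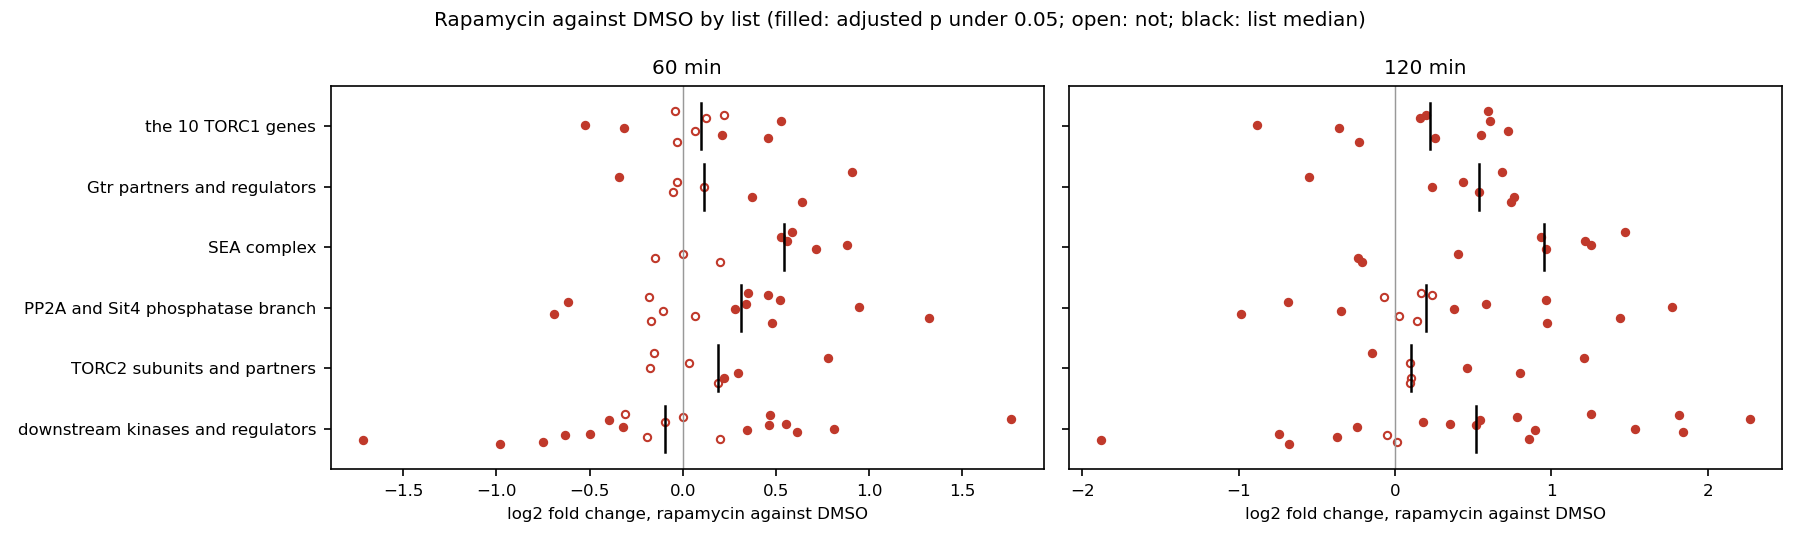
Log2 fold change, rapamycin against DMSO, at 60 min (left) and 120 min (right) for the 10 genes and for 5 lists of related genes; each point is a gene, filled where it passed at an adjusted p under 0.05 and open where not, and black bars are list medians. The SEA complex has the highest median at 60 and 120 min, 0.54 and 0.95, and TOD6 and GAT1 are the extremes of the downstream list.

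Likeness of course was described by Pearson's r between mean log2 CPM over the 15 conditions, which share the time axis, and is given with no test. TOR1 was nearest to PKC1 (0.991), VHS1 (0.987) and FUN19 (0.984), and TOR2 to SEF1 (0.941), SPA2 (0.932) and YNG1 (0.913). TCO89 was nearest to STB3 (0.983), WHI4 (0.979) and INP1 (0.975), KOG1 to TEL1 (0.928), SGF11 (0.925) and YHR078W (0.892), and LST8 to YGR126W (0.888), ICP55 (0.874) and YGR127W (0.863). For SCH9 the nearest were RGR1 (0.895), DAD3 (0.886) and DAT1 (0.847), and for SIT4 they were NAB2 (0.939), LSR1 (0.932) and RIT1 (0.925). TAP42 was nearest to YEN1 (0.986), ATO2 (0.969) and RIM4 (0.964), GTR1 to YMR320W (0.917), CTL1 (0.916) and YEN1 (0.915), and GTR2 to YDR541C (0.923), YDR401W (0.920) and YGL159W (0.912). Among the 10 themselves, GTR1 and TAP42 were most alike (0.902), followed by TOR1 and TCO89 (0.880), and TOR2 and GTR2 were most opposed (-0.855).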

How the data were processed

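Poly-A RNA was sequenced from 45 libraries of spores, DMSO and rapamycin cultures. Per the paper's methods the authors trimmed reads with Trimmomatic 0.33, aligned them with hisat2 to the SK1 genome and counted them per R64 gene with HTSeq in union mode with strand. The deposited values are these raw counts, 1 column for each library, with no normalization. The series record names another sequencer and other aligners, and its processing notes list a human build. Which account applies to the deposited counts is not settled in the sources used here, and the genes in the table are those of yeast. The 10 genes, the lists of related genes and the tests were chosen with earlier results of these data known.

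Genes above 1 CPM in 3 or more of the libraries compared were scaled by TMM and tested with the quasi-likelihood test of edgeR 4.0.16 in R 4.3.3 on the 6 libraries compared (12 for interactions), with Benjamini-Hochberg adjustment and a threshold of 0.05. The SE is the fold change (log2) over the root of F. Named genes were the 10, and of each list the highest and lowest gene that passed at 60 and 120 min. Likeness was ranked over all genes by r. The tests were tested on simulated data. Alternatives were DESeq2 1.42.0, library size alone, no filter, 1 fit over all 45 libraries, the 2-fold minimum, the replicate block and each library left out. Replicate letters came from the labels. Deviations from group means of libraries with the same letter correlated at 0.353 or more for each pair in rapamycin against DMSO at 0, 10 and 30 min and at 0.134 or more in DMSO against spores at those times, which is how pairing was decided, and at less than 0.1 for at least 1 pair at 60 min and later. Between 7736397 and 14522407 reads were counted per library. Promoters and gene positions are from the R64 genome of RefSeq, and protein sequences were not used here.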

Additional observations from a re-analysis of the deposited data

Results flagged for a closer look

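Each result here was picked out because the effect of rapamycin against DMSO differed between 2 times by the interaction term of edgeR's quasi-likelihood test. At 60 minus 30 min the differences (log2) were 0.43 for TOR1 (adjusted p = 0.0138), 0.41 for LST8 (0.0229), -0.41 for SCH9 (0.0119) and -0.33 for SIT4 (0.0196). At 360 minus 120 min they were 0.41 for TOR2 (0.0109), -0.42 for LST8 (0.0171) and 0.78 for SCH9 (0.0105). In these 7 results the effect of TOR1, LST8, SCH9 and SIT4 was near 0 at 30 min, and that of SCH9 was -0.09 at 360 min, where rapamycin replicate A had 211 CPM beside 132 and 131 CPM in its group mates. Their causes were not tested.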

How the results depend on the processing

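DESeq2, no filter and 1 fit over all 45 libraries kept every count of the 10 within 1.5 times and turned no direction. Among genes that passed in at least 1 of the 2 fits compared, scaling by library size alone turned 9 values (log2) in rapamycin against DMSO, DMSO against spores and the interactions, which were 0.27 for GTR1 and 0.0023 for SIT4 at 60 min, 0.27 for TOR2 and 0.15 for SIT4 at 120 min and 0.0056 for LST8 at 240 min in rapamycin against DMSO, 0.076 for KOG1 at 30 min, -0.37 for KOG1 and -0.080 for LST8 at 120 min in DMSO against spores, and -0.0073 for TOR2 in the interaction of 360 min. It gave 8 genes at 240 min in rapamycin against DMSO and 6 in the interaction of 360 min. With the 2-fold minimum the counts were 0, 0, 1 and 0 at 60 to 360 min in rapamycin against DMSO, and 2, 1, 1, 2, 2 and 3 at 10 to 360 min in DMSO against spores.

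With the replicate block 2 genes passed in rapamycin against DMSO at 360 min, where the letters do not pair the libraries, as TOR1 (adjusted p = 0.052 by edgeR) and TCO89 (0.0604) were lost, and 4 passed in DMSO at 360 against 240 min. SIT4 was gained at 240 min and in the interaction of 360 min, TAP42 in DMSO against spores at 60 min, and SCH9 there at 10 and 30 min. At 30 against 10 min in DMSO the block gave 7 genes in place of 5, and at 60 against 30 min 9 in place of 6. It changed no other call in the comparisons run.

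With 1 library left out, the counts were 0 to 0 at 0, 10 and 30 min, 3 to 5 at 60 min, 8 to 10 at 120 min, 4 to 6 at 240 min and 0 to 5 at 360 min in rapamycin against DMSO. They were 0 to 0, 9 to 10, 7 to 9, 5 to 8, 6 to 8, 9 to 10 and 8 to 9 at 0 to 360 min in DMSO against spores, and 3 to 4 and 1 to 6 in the interactions of 60 and 360 min. The alternatives for rapamycin against spores (0 to 0, 9 to 9, 8 to 9, 5 to 7, 9 to 10, 7 to 7 and 6 to 7) and for successive times (9 to 10, 5 to 6, 4 to 8, 5 to 6, 7 to 9 and 1 to 4) were chosen after seeing the data. TCO89 at 60 min passed in 3 of 11 settings, KOG1 at 120 min in 5 of 11 and GTR2 at 120 min in 7 of 11. The causes were not tested. At 3 libraries a group, exact tests of a single ratio cannot pass.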
